A study of Spirodela polyrhiza with 12 samples.

Results

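A set of 72 genes, of 18099 in the deposited table, combined a very large rise with a very high final level in leaves of the giant duckweed Spirodela polyrhiza at high temperature. The set was chosen by measured values. FPKM (fragments per length of transcript and per size of library) was multiplied in each library by a factor that set the median of 12316 widely detected genes to 15, giving a median-scaled FPKM. I, M and H are the means of this level plus 0.5 over the indoor, middle and high temperature libraries. A gene was kept with H/I of at least 16 and H of at least 200. High against indoor temperature is therefore the contrast that chose the members, and their values in it are given as a description. The middle-temperature libraries took part in the choice only through the scaling. Its 12316 genes are those with an FPKM of at least 1 in all 12 libraries.

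The libraries were made from leaves of this small floating plant, 4 from plants at indoor temperature, 4 at middle and 4 at high temperature. The indoor plants are the reference for the other two groups. No label gives the degrees, the length of exposure or the genotype of the plants. The series title places the experiment in a study of aquaporins and high-temperature stress. Libraries were made from poly(A) RNA and read from both ends. Total counts ran between 23655239 and 32711880 per library. In RNA from whole tissue more cells of a type and more RNA per cell cannot be told apart.

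Heat unfolds proteins, and plant cells answer it through heat shock transcription factors that bind the promoters of chaperone genes. The products are heat shock proteins of several size classes, which hold or refold damaged proteins or feed them into degradation. Small heat shock proteins are known as a large and often clustered gene family in plants, and many of their transcripts are scarce in unstressed leaves and become abundant on heating. The files do not pair gene identifiers with names, so which members encode such proteins was not analysed here, and no role is given to any identifier. At most 2 identifiers are printed for each end of each comparison, and the other members are described by their rank in H.

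The members held under 1% of each indoor library and over 25% of each high-temperature library. Their share of all counts was 0.4996%, 0.702%, 0.896% and 0.504% of all counts in the indoor libraries, 4.41%, 2.04%, 2.91% and 3.35% in the middle libraries, and 28.8%, 25.2%, 31.9% and 32.7% in the high libraries, each in the order of replicates 1 to 4. The groups did not overlap, and the order of the groups was the same on deposited FPKM. The mean share was 0.651% ± 0.189 for indoor, 3.18% ± 0.98 for middle and 29.7% ± 3.41 for high temperature (SD, n = 4).

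**Figure D1:**
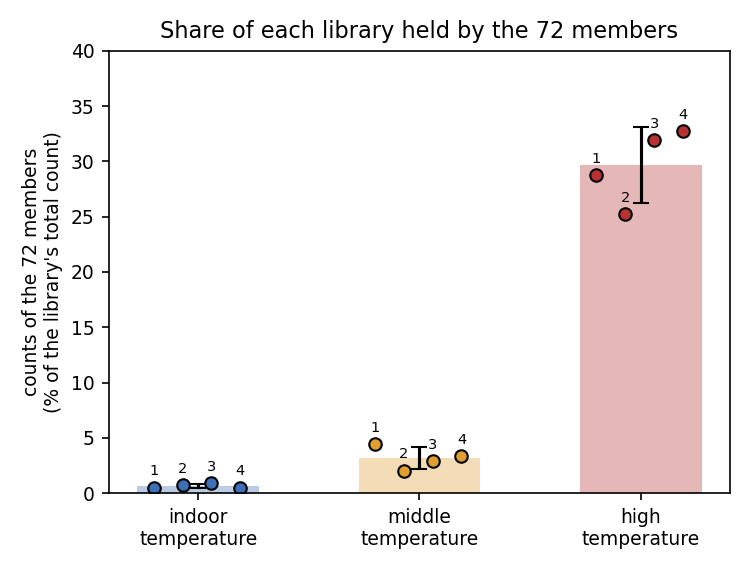
Share of each library's total count held by the 72 members, in percent, for indoor, middle and high temperature. Points are libraries with their replicate numbers, bars are means and error bars are SD over 4 libraries; the high libraries lie between 25.2% and 32.7%, and the middle libraries between 2.04% and 4.41%.

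The members led the abundance ranking at high temperature. By mean median-scaled FPKM, a level per length, the 10 most abundant genes at high temperature were all members, and so were 28 of the 50 and 43 of the 100 most abundant. At middle temperature 10 of the 100 most abundant genes were members, and at indoor temperature 0 of 100 were. The median rank of the members among all genes was 3192 in the indoor group, 896.5 in the middle group and 75 in the high group. The best-ranked member stood at 237 in the indoor order.

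The share was held unevenly. By counts, which also grow with transcript length, the leading member held 2.96% of all counts at high temperature, the leading 10 held 17.4% and the leading 20 held 23.6%. The leading 40 members made up 94.5% of the members' counts at high temperature, so the others added little to the pool. In H, 11 members reached 10000, 6 lay between 5000 and 10000, 12 between 2000 and 5000, 17 between 1000 and 2000, 11 between 500 and 1000 and 15 between 200 and 500.

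The most abundant member, Spipo21G0021400.v2, was already expressed without heat. Its median-scaled FPKM in replicates 1 to 4 was 133, 192, 301 and 130 at indoor, 3458, 1642, 2614 and 3320 at middle, and 22859, 21848, 28162 and 34213 at high temperature. Each group lay wholly above the one before it, and the high libraries were the highest in all 4 replicates. The second, Spipo0G0086300.v2, measured 43.1, 99.9529, 98.9 and 39.4 at indoor, 722, 139, 214 and 367 at middle, and 14713, 13121, 20282 and 24363 at high temperature. Its groups did not overlap either, and its middle libraries spread widely, with replicate 1 the highest. H/I was 141 for the first and 256 for the second.

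**Figure D2:**
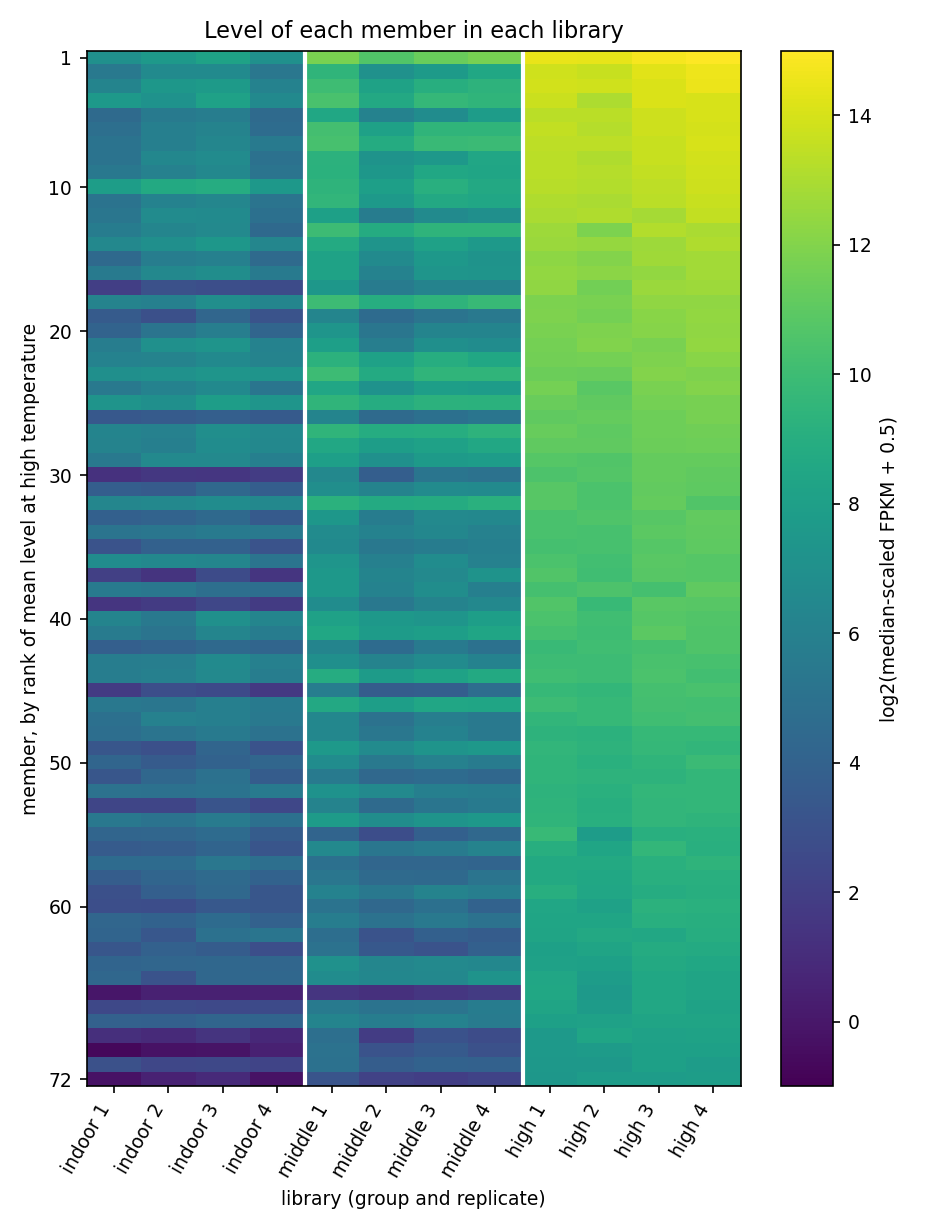
Level of each of the 72 members in each of the 12 libraries, as log2(median-scaled FPKM + 0.5), with members in rows by rank of H and libraries in columns. Within each row the high columns are brighter than all indoor and middle columns for all 72 members. The middle columns overlap the indoor columns for 16 members, and replicate 1 is the brightest of the middle libraries for 66 of 72.

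How far members rose varied more than 50-fold across the set. H/I ran between 16.4 and 829 with a median of 51.6, against a median of 0.977 over the 15209 genes tested. A rise of 16-fold to under 32-fold was found for 24 members, 32-fold to under 64-fold for 16, 64-fold to under 128-fold for 8, 128-fold to under 256-fold for 17, and 256-fold or more for 7. All 72 members had all high libraries above all indoor libraries, which was so for 16.3% of the genes tested, and edgeR called all 72 higher, against 17.1% of the genes tested. The same contrast chose the members and so strongly favoured both counts, and nothing is read from them. In deposited FPKM without the scaling, the fold of the means ran between 10.1 and 552, with a median of 32.5.

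Most members were well counted at indoor temperature. No member had a count of 0 in any library, and the lowest count was 3 in the indoor libraries, 49 in the middle libraries and 1218 in the high libraries. The count of 3 belonged to rank 70, whose indoor counts were 3, 7, 9 and 19 and whose indoor mean of 0.443 median-scaled FPKM lay below the offset of 0.5. No other member had an indoor count under 19. Over members and libraries the median count was 1136.5, 4976 and 43484.5 in the same order of groups. I was under 5 for 8 members, 5 to under 20 for 23, 20 to under 50 for 12, 50 to under 100 for 21 and at least 100 for 8. The median I of 36.3 was above the median of 11.2 over all genes tested.

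The limits of the rule cut through a continuous range. The 3 members nearest to the ratio limit had H/I of 16.4, 16.5 and 17.0, and the 3 genes just outside it with H of at least 200 had 15.8, 15.7 and 15.2, one of them with an H of 4530. The members of lowest H stood at 219, 221 and 238, and the highest genes outside with H/I of at least 16 stood at 193, 177 and 158. With FPKM as deposited the rule kept 50 genes, all of them members, and with a ratio of 8 it kept 100.

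Middle temperature against indoor temperature asks how much of the rise was present at the intermediate treatment. Genes that reached an FPKM of 1 in 4 or more libraries entered edgeR's quasi-likelihood test, and a gene was called at a Benjamini-Hochberg adjusted p under 0.05. All 72 members passed this filter, which their high libraries alone secured. At middle temperature 61 members were called higher than at indoor temperature, against 19.2% of all genes tested, and 0 were called lower, against 17.7% of all genes. The 11 others were not called, 8 with a fitted value above 0 and 3 below. The indoor libraries of this comparison also chose the members, so these counts describe the members and are no independent test. The calls measure the spread between samples that nothing in the labels describes as separate cultures.

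The step at middle temperature was moderate for most members. The median log2 fold change was 2.18 over the members and -0.02 over all genes tested. In M/I, 3 members were below 1, 10 at 1 to under 2, 19 at 2 to under 4, 29 at 4 to under 8, 7 at 8 to under 16 and 4 at 16 or more. Of the members, 40 were called higher with a fold of at least 4, which held for 2.74% of all genes tested. All middle libraries lay above all indoor libraries for 56 members, against 20.5% of the genes tested, and the groups overlapped for the other 16.

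Members at the ends of M/I and H/M were picked by that same comparison, so its fold change is given for them as a description, without a p. The 2 largest M/I belonged to members that were scarce at indoor temperature. Of the 4 members with M/I of 16 or more, rank 70 in H was also scarce there, with an I of 0.943. Rank 7, however, had an I of 55.9, above the members' median of 36.3. Spipo16G0039200.v2 had 185, 74.2, 93.9 and 151 at middle temperature, against 3.56, 2.17, 5.76 and 2.26 at indoor temperature, in median-scaled FPKM of replicates 1 to 4. Its log2 fold change was 5.18 ± 0.43 (SE). Spipo14G0038900.v2 had 111, 42.0, 70.9 and 88.8 at middle temperature, against 2.25, 2.90, 4.69 and 2.89 at indoor temperature. All 4 middle libraries of both genes lay more than 8-fold above the highest indoor library, with a log2 fold change of 4.60 ± 0.39 for the second. At high temperature their means were 1560 ± 344 and 1556 ± 472 (SD, n = 4).

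At the other end, 11 members showed no call at middle temperature and yet belonged to the set by their level at high temperature. Spipo1G0122300.v2 had 27.2, 8.15, 14.6 and 12.3 at middle temperature, against 17.3, 9.77, 31.2 and 37.4 at indoor temperature. The groups overlapped, and its log2 fold change was -0.63 ± 0.40. Spipo14G0056300.v2 had 30.0, 19.3, 19.4 and 17.4 at middle temperature, against 24.1, 23.2, 40.7 and 28.4 at indoor temperature, with a log2 fold change of -0.45 ± 0.24. Without middle replicate 1, the highest of its group, this value moved to -0.67, and without indoor replicate 3 it moved to -0.20. Spipo14G0056300.v2 was called lower only in the fit without middle replicate 1, which is a description, since this comparison picked the gene. At high temperature the means were 402 ± 72.8 and 522 ± 120 (SD, n = 4), all libraries above 300.

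These 11 members were spread over the abundance range of the set. They held ranks 10, 12, 21, 36, 43, 47, 51, 55, 57, 62 and 63 in H, with a median H of 959, against 1695 for the 61 called higher. Rank 10, with an I of 329, was the member of highest indoor level and held 2.51% of all counts at high temperature. Its M/I was 1.44 and its H/M was 23.3. Rank 12 had an M/I of 2.04 and an H/M of 64.3. Its fitted log2 fold change of 1.03 ± 0.51 between middle and indoor temperature missed the threshold.

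High temperature against middle temperature measures the second step. All 72 members were called higher at high temperature, against 15.9% of all genes tested, and 0 were called lower, against 14.5%. All high libraries lay above all middle libraries for all 72, against 15.9% of the genes tested. A call with a fold of at least 4 was found for 66 members, against 1.83% of genes. The high libraries of this comparison also chose the members, and the middle libraries are shared with the comparison above, so these counts are a description. The median log2 fold change was 4.07 over the members and 0.00325 over all genes.

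**Figure D3:**
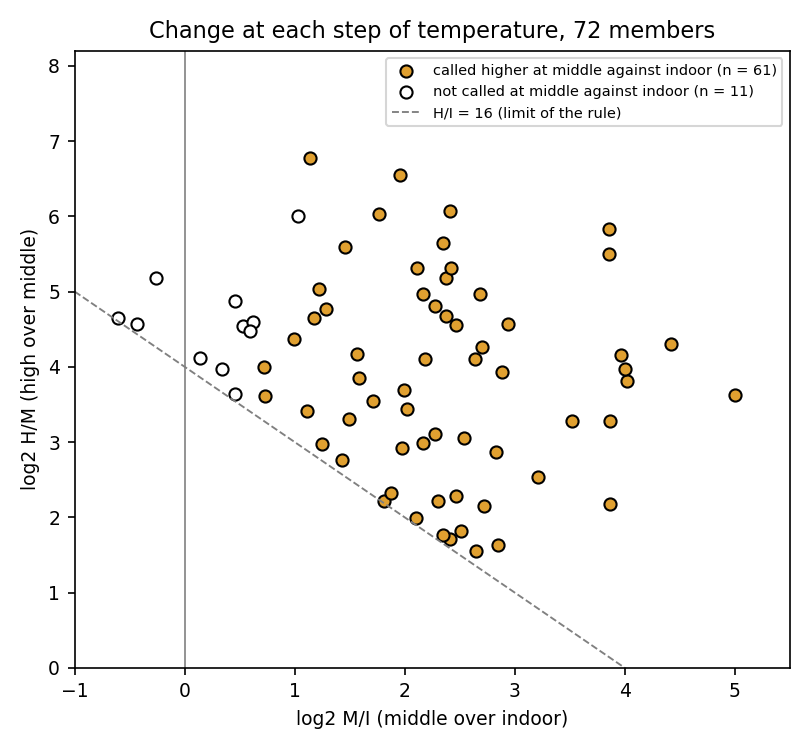
Change at each step of temperature for the 72 members: log2 M/I across and log2 H/M upward, from median-scaled FPKM plus 0.5. Filled points are the 61 members called higher at middle against indoor temperature and open points the 11 not called; the dashed line marks H/I = 16, below which no member can lie, and most points lie above a log2 H/M of 3.

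The second step was the larger for most members. The middle position, log2 M/I divided by log2 H/I, gives the part of the rise on the log2 scale that was present at middle temperature. Its median was 0.345 over the members, with quartiles of 0.211 and 0.490, and it ran between -0.150 and 0.640. It was below 0 for 3 members, 0 to under 0.25 for 19, 0.25 to under 0.5 for 33 and at least 0.5 for 17. On the linear scale the median H/M was 16.6 and the median M/I 4.49. Genes with the same minimum rise but an H under 200 that were tested, 38 in number, had a median position of 0.443 with quartiles of 0.255 and 0.531, a range that overlaps that of the members. Their median M/I was 4.21 and their median H/M 7.19. The difference between these sets was not tested.

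The largest H/M values, 110 and 93.6, belonged to members with most of their rise in the second step on the log2 scale. Spipo4G0115200.v2 had 365, 204, 362 and 320 at high temperature, against 2.31, 1.82, 2.36 and 2.92 at middle temperature. Its indoor libraries stood at 0.497, 0.863, 0.862 and 0.968, the lowest of any named member, with counts of 19 to 42. Its log2 fold change between high and middle temperature was 7.06 ± 0.28. Between middle and indoor temperature it was 1.52 ± 0.25, given as a description.

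Spipo20G0008500.v2 had 3918, 3220, 4640 and 5373 at high temperature, against 77.8, 23.7, 35.4 and 44.4 at middle temperature. Its indoor mean was 11.3 ± 5.42 (SD, n = 4). The high libraries lay more than 40-fold above the highest middle library, and the log2 fold change was 6.56 ± 0.48. Between middle and indoor temperature it was 1.99 ± 0.39, given as a description.

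The smallest H/M values, 2.93 and 3.10, belonged to members with over 0.6 of their rise on the log2 scale present at middle temperature, though in level the larger step was still the second. Spipo3G0023300.v2 had 352, 231, 365 and 328 at high temperature, against 109, 85.5, 88.5 and 151 at middle temperature. Its log2 fold change was 1.57 ± 0.28 (SE) and its middle position 0.630. Spipo0G0032100.v2 had 1009, 824, 1207 and 1151 at high temperature, against 405, 249, 351 and 344 at middle temperature. Its log2 fold change was 1.64 ± 0.21 and its middle position 0.636. The groups did not overlap for either gene. With library totals in place of TMM scaling, which moved the median of all genes to -0.82, these values were 0.74 and 0.83.

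The most abundant members did not share 1 course. Among the 12 highest in H, M/I was 14.6, 15.6 and 16.2 at ranks 1, 6 and 7, between 4.55 and 7.67 at ranks 2, 3, 4, 5, 8, 9 and 11, and 1.44 and 2.04 at ranks 10 and 12. The indoor libraries also chose the members, so no p is given for middle against indoor temperature. For the 2 most abundant, the log2 fold change between middle and indoor temperature was 3.85 ± 0.38 and 2.35 ± 0.51 (SE). Between high and middle temperature, where the high libraries had picked both, it was 3.28 ± 0.37 and 5.65 ± 0.59. Without middle replicate 1 the values for Spipo0G0086300.v2 were 1.74, still called higher, between middle and indoor temperature and 6.26 between high and middle temperature. At middle temperature Spipo21G0021400.v2 thus stood at 2759 ± 831, against 360 ± 259 for Spipo0G0086300.v2 (SD, n = 4), although at high temperature their means were 26771 ± 5682 and 18120 ± 5172.

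Within a group, the same libraries were high or low for most members. Of the 72 members, 66 had their highest middle-temperature level in replicate 1, and 0 had it in replicate 2. Over all genes tested these shares were 22.6% and 30.3%. Among the 38 genes with H/I of at least 16 and H under 200 they were 81.1% and 2.70%. The level in middle replicate 1 was a median 1.73 times the mean of the other 3 middle libraries over the members and 0.984 times over all genes tested. In middle replicate 2 the medians were 0.553 and 0.992. The 38 less abundant genes had 2.05 in replicate 1 and 0.646 in replicate 2. Members share a library and its scaling, so these are counts of members and not of independent samples.

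A like pattern was present at the other temperatures. At indoor temperature 55 of 72 members were highest in replicate 3, against 27.5% of all genes tested, and the median ratio to the other 3 libraries was 1.58 over the members and 0.983 over all genes. At high temperature 42 members were highest in replicate 4 and 26 in replicate 3, against 25.5% and 23.8% of all genes tested. Among the other genes with H of at least 200 these shares were 43.4% and 23.1%. The members' median ratios were 1.26 and 1.16, against 0.997 and 0.938 over all genes. On deposited FPKM 61 members were highest in middle replicate 1 and 51 in indoor replicate 3, against 12.9% and 22.1% of all genes tested. At high temperature 26 were then highest in replicate 4 and 37 in replicate 3, against 9.1% and 22.6% of all genes. Which high library led thus turned with the scaling. The multiplier that set the scale was 0.657 to 0.697 in the indoor libraries, 0.578 to 0.671 in the middle libraries and 1.010 to 1.243 in the high libraries.

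**Figure D4:**
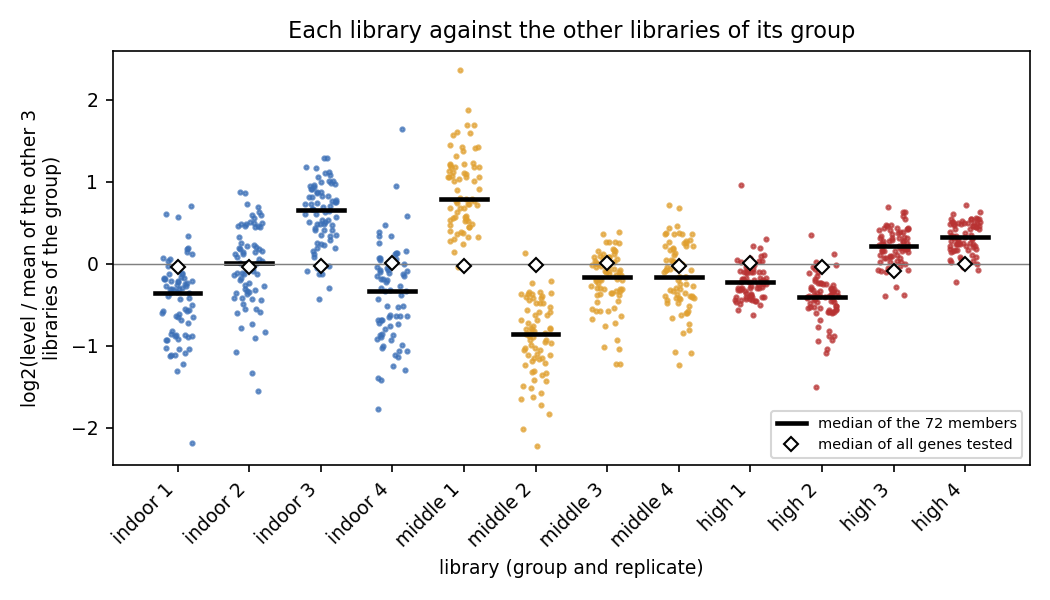
Each library against the mean of the other 3 libraries of its group, as a log2 ratio of median-scaled FPKM, for the 72 members (points), their median (black line) and the median of all genes tested (white diamond). Most members lie above 0 in indoor replicate 3 and middle replicate 1 and below it in middle replicate 2, while the diamonds stay near 0 in all 12 libraries.

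With middle replicate 1 left out, 56 members were called higher at middle temperature and the median log2 fold change over all 72 was 1.83, against 2.18 with all libraries. With indoor replicate 3 left out, the values were 63 and 2.47. The median coefficient of variation over the 4 libraries was 32.4% for indoor, 39.6% for middle and 21.1% for high temperature among the members. For all genes tested it was 21.0%, 18.5% and 23.7%. Among the other genes with H of at least 200 it was 20.3%, 18.7% and 22.1%, and among the 38 genes with H/I of at least 16 and H under 200 it was 31.2%, 46.7% and 25.5%. Of the 6 members whose highest middle library was not replicate 1, ranks 28, 55, 59, 65, 66 and 67 in H, 2 were among those named here for an extreme H/M. Without middle replicate 1 and indoor replicate 3 together, 58 members were called higher at middle temperature, an alternative chosen after seeing the data.

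The rule set no limit on transcript length. Its measure H, however, is a level per length, so length entered the choice of members. Within a gene the ratio of the deposited count to FPKM, once divided by a constant per library, varied by at most 0.0144% (relative SD) over 1353 genes with high counts, so it gives the length the authors' quantification used. These lengths were whole multiples of a common step within a tolerance of 0.1 steps for all 417 genes used to find it and for all 72 members. No label gives the size of the step in bases. Gene models made of coding sequence alone have lengths in whole codons, but whether these models are of that kind was not tested.

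The members were short for the most part. Their median length was 0.548 of that of the median gene tested, which had 337 steps. A length under 0.6 of the median gene was found for 39 members (54.2%), against 25.9% of the genes tested with a length. Of the other genes with H of at least 200, 47.6% were under 0.6, and their median length was 0.639. For the 38 genes with H/I of at least 16 and H under 200 these values were 28.9% and 1.01. Between 0.4 and 0.6 of the median gene lay 41.7% of the members, against 13.2% of all genes and 23.1% of the other abundant genes, and 16 members (22.2%) exceeded 1.5. Above that length lay 26.4% of all genes, 28.9% of the 38 genes with H/I of at least 16 and H under 200, and 9.75% of the other abundant genes. No test was made of these differences, and the short length of the members cannot be read as independent of the limit on H.

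**Figure D5:**
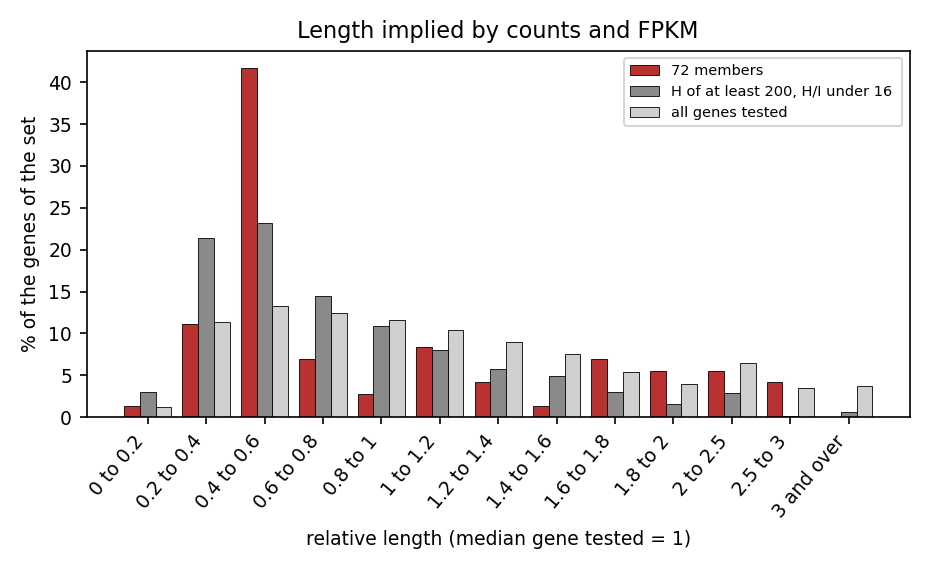
Length implied by deposited counts and FPKM, relative to the median gene tested (set to 1), as the percent of genes of each set in each class. The members (red) have 41.7% of their genes in the class 0.4 to 0.6, where all genes tested have 13.2%.

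Short and long members contributed differently to the pool. The 39 members under 0.6 of the median length held 9.34% of all counts at high temperature, the 17 between 0.6 and 1.5 held 5.92%, and the 16 above 1.5 held 14.4%. Per length the median H was 1576, 1560 and 1795 in the same order. Their median M/I was 4.55, 3.40 and 4.58, and their median middle position 0.337, 0.226 and 0.413. The most abundant member had 156 steps and the second 169. The 2 members of the largest share of counts, ranks 6 and 9 in H, had 657 and 703 steps and held 2.96% and 2.88%.

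Some members had exactly the same length. A length of 169 steps was shared by 5 members, ranks 2, 3, 5, 17 and 45 in H, against 35 of the genes tested (0.230%). These 5 held 3.26% of all counts at high temperature. Lengths of 100, 159, 172 and 174 steps were each shared by 2 members. Whether genes of equal length are near-identical copies was not tested, and the counting may have divided reads among copies, which makes the level of each single copy uncertain.

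The identifiers of the members were unevenly spread. They fell under 22 of the 33 numbers that stand before the letter G in the table's identifiers. Number 10 had 11 members of 498 genes (2.21%) and number 0 had 13 of 1681 (0.773%), while number 3 had 2 of 1085 (0.184%). Of the 11, 8 lay within a run of numbers in which the table lists 30 genes. The run was chosen after the values were seen, and no genome positions were used here.

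Within that run, members were numbered among genes of smaller H/I for the most part, though many of these also rose. The 8 members had H/I between 18.4 and 829 and H between 306 and 17855, and together they held 0.0294% of all counts in the indoor group, 0.160% in the middle group and 3.28% in the high group. Their share in replicates 1 to 4 was 3.08%, 2.68%, 3.60% and 3.76% at high temperature. Of the 22 other genes 19 were tested. Over all 22 the median H/I was 2.86, with a range between 0.343 and 143, and 12 reached an H/I of 2. The median over all genes tested was 0.977. Of these 22, 4 also reached an H/I of 16 at an H under 200. The I of these 4 lay between 0.5 and 0.559, so their H/I rests on the offset of 0.5. Their H ran between 11.5 and 71.6, and the H/I of 143 belonged to the gene with an I of 0.5. Over the 8 members M/I ran between 1.51 and 14.5 and H/M between 5.02 and 67.1, and rank 17 had the largest H/I of all members, 829.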

How the data were processed

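Leaf RNA was measured in 12 libraries of 3 groups. Per the file headers, the deposited table gives FPKM and a count per library and gene. Tools listed, with no role stated, per the submitters' processing notes, are StringTie 1.3.4d and HISAT2 2.0.4 as well as cutadapt 1.9, edgeR, DESeq2 and UMI-tools. Neither build, annotation nor strand use in counting is given in the sources read here. The deposited counts are estimated counts that were already whole, so overlapping genes and similar copies are uncertain. The commonest count above 0 was 4.

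From these, edgeR's robust quasi-likelihood test with TMM scaling (version 4.0.16, under R 4.3.3) was fitted to all 12 libraries with a term per group, over 15209 genes, with Benjamini-Hochberg adjustment. Standard errors are the fold change over the root of F. The members, lists and tests were chosen with earlier results of these data known. Named members are the 2 of highest H and those at both ends of M/I and H/M.

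Between replicates, chi-square per degree of freedom was at least 47.1 over 18 pairs. The fit was tested on simulated data with known changes. Between middle and indoor temperature it recovered 10% of the genes changed 1.5-fold, 38% of those changed 2-fold and 82% of those changed 4-fold. Between high and middle temperature these shares were 4%, 40% and 88%. A missing call therefore does not show that a gene was unchanged. Alternatives were DESeq2 1.42.0, limma 3.58.1 on log2(median-scaled FPKM + 1) and + 0.1, other scalings, no filter, counts divided by 4, a replicate block and leaving out each library.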

Additional observations from a re-analysis of the deposited data

Results flagged for a closer look

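Among 33 sets of 4 libraries (the 10 named members and the members' share of counts, in each group), 2 held a library that stood apart: its gap to the nearest other library, as a share of the group's range, was above the critical value of Dixon's test at 95%. Chance alone marks about 1 in 20 sets. In Spipo14G0056300.v2 at middle temperature, replicate 1 had a median-scaled FPKM of 30.0, against 17.4 to 19.4 in the other 3 libraries, a gap of 0.841 of the range. In Spipo3G0023300.v2 at indoor temperature, replicate 2 had 7.92, against 19.6 to 20.1 in the others, a gap of 0.962 of the range. Over all 72 members and 3 groups, 8 of 216 sets passed the same value, 4 through middle replicate 1, 3 through indoor replicate 3 and 1 through indoor replicate 2, and 0 at high temperature.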

How the results depend on the processing

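Over 21 alternatives, 419 of 420 fold changes of named members had the same sign and the same call, and 0 changed sign. The other was Spipo14G0056300.v2 between middle and indoor temperature, called lower without middle replicate 1. Members called higher between middle and indoor temperature, 61 as reported, numbered 56 to 63 without 1 library, 57 with the replicate block, 60 with no filter and 61 with DESeq2, limma or library totals. Members called lower there numbered 0 to 1 without 1 library. Between high and middle temperature all 72 members were called higher under all 21 alternatives. No pairing by replicate number was seen: correlations of same-numbered deviations ran between -0.290 and 0.282. The highest with any partner was 0.323, so low values cannot exclude that same-numbered libraries share an origin. The rule kept 68 to 77 genes when 1 indoor or high library was left out, 50 with FPKM as deposited, 72 with TMM-scaled FPKM or an offset of 0.1, 48 with a ratio of 32, 83 with an H of 100 and 62 with an H of 400. The mean share at high temperature, 29.7% of counts, was 23.8% without the 2 members of highest share and 28.6% to 31.1% without 1 library, and 29.3% of FPKM. Depth limits the indoor level of the member with a count of 3 most.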
